A study of Mus musculus with 24 samples.

Results

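Adrenergic receptors are the receptors for noradrenaline and adrenaline, and 6 of the 7 receptor genes chosen by name were measured among 14074 genes in the prefrontal cortex (PFC) of 24 mice: Adra1a, Adra1b, Adra1d, Adra2a, Adra2c and Adrb1. The other one, Adra2b, was not analysed here. Every mouse was a male C57BL/6 animal aged 10 to 12 weeks and gave 1 bulk RNA-seq library. There were 6 groups of 4 mice, formed by phenotype and injection. Control mice were intact animals that met no aggressor. The stressed mice went through 30 days of chronic social defeat by CD1 males and were sorted, by clustering of their behaviour in non-aggressive contact, into a passive coping phenotype (PS) and an active coping phenotype (AS). Each phenotype received saline or dexamethasone (DEX, a synthetic glucocorticoid, at 2 mg/kg into the peritoneum), 24 h after the last defeat in the stressed mice, and the tissue was taken 6 h later. Because PS and AS were defined from behaviour within 1 stressed cohort, a difference between them cannot be told apart from whatever else separated those animals.

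Noradrenaline reaches the cortex from the axons of locus coeruleus neurons, whose cell bodies lie in the brainstem. It acts through 3 receptor classes that couple to different G proteins. Receptors of the alpha1 class (Adra1a, Adra1b, Adra1d) couple to Gq and phospholipase C, those of the alpha2 class (Adra2a, Adra2c) couple to Gi and lower cyclic AMP, and beta receptors (Adrb1) couple to Gs and raise it. In the PFC, the alpha2A receptor is best known for its postsynaptic action on pyramidal neurons in working memory, and on noradrenergic terminals it acts as an autoreceptor that limits release. Glucocorticoids act through the glucocorticoid receptor, a transcription factor that binds DNA.

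The values are normalized counts, that is, read counts divided by 1 size factor per library, so they compare libraries but not genes of different length. Libraries held 21121869 to 59439645 reads on genes (median 24420129), and the AS groups were deeper by median, at 34242531 (saline) and 37876626 (DEX) against 22869703 to 24187702 in the other 4 groups. The fewest reads behind any receptor value were 151. The DEX label was checked on Fkbp5, a classical glucocorticoid receptor target, whose normalized count lay between 761 and 1088 in all saline mice and between 2931 and 4198 in all DEX mice. Tsc22d3 and Sgk1, further such targets, were also called higher with DEX in each phenotype. All 8 pyramidal neuron markers examined were present, with a summed normalized count of 158539 to 228750 per library. Most of that sum came from Camk2a (mean 130687) and Slc17a7 (46232), so it says little about the others. With DEX, 1 of the 8 was called in control (Neurod6, lower), 0 in PS and 1 in AS mice (Tbr1, higher). Of all genes, 6.49%, 5.36% and 8.77% were called. Markers of noradrenergic cell bodies, such as Dbh and Slc6a2, were not analysed here. Olfactory bulb markers (3 of 4 in the table) varied widely, from a summed 94.9 to 3857, and were highest in control saline mouse 117 and PS DEX mouse 34.

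The sequences that carry letters known from regulated promoters are shown first, since the receptor gene with the largest DEX response and 2 of its relatives can be compared in them. RefSeq promoter windows (GRCm38.p6, 250 bases before to 50 after the start) were at hand for Adra1b, Adra2a, Adra2c and Adrb1. The stretches below are on the plus strand, 5′ to 3′, and capitals mark CACGTG, an E-box, in the first and the third of them. They mark TGACG, part of a cyclic AMP response element, in the first and the last. In the remaining one they mark the TATA box letters (TATAAA) close to the start. The Adra2a stretches start 94 and 44 bases before its RefSeq start, at chr19:54045165-54045194 and chr19:54045215-54045244. That of Adra2c starts 165 bases before, at chr5:35278401-35278430, and that of Adrb1 105 bases before, at chr19:56722012-56722041.
Adra2a, E-box and TGACG: gagggtcgacttccCACGTGggggcTGACG
Adra2a, TATA box: gcttcatcctggggcTATAAAaccagtcca
Adra2c, E-box: tcaactcaggccaCACGTGacagaacctct
Adrb1, TGACG: ttggctgcgggagccTGACGcgcggccccg

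Among 32851 promoter windows of the same length, CACGTG stood in 7.15% and TGACG in 20.81% (both strands searched), and TATAAA in 8.319% (strand of the gene). The full glucocorticoid response element (AGAACA, then 3 free bases, then its reverse complement) was in 0.009132% of the windows on either strand, a looser form with GNACA in place of AGAACA in 0.4749%, and AGAACA alone, which overlaps the full form, in 18.97%. None of these 3 was found in the windows of Adra1b, Adra2a, Adra2c or Adrb1. This says only that these letters are not in these windows. GENCODE places the start of Adra2a further upstream, at 54044151, so that its window lies inside the gene as the count files annotate it. The printed stretch of Adra2c also lies inside its annotated gene, which starts at 35278319.

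The 6 receptor genes spanned a wide range of levels. Per kilobase of annotated exon (mean ± SD of normalized counts, n = 24), Adra1d stood at 658 ± 73.1, Adrb1 at 344 ± 27.5, Adra1b at 328 ± 40.0, Adra2a at 112 ± 39.7, Adra2c at 106 ± 16.7 and Adra1a at 38.4 ± 10.5. Adrb1 and Adra1b, neighbours in this order, lay within each other's spread, and so did Adra2a and Adra2c. The order rests on exon length: 1899 bases are annotated for Adra1d (1 transcript) and 8728 for Adra1a (6 transcripts), and where a gene model misses or adds untranslated sequence its level per kilobase moves with it.

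**Figure D1:**
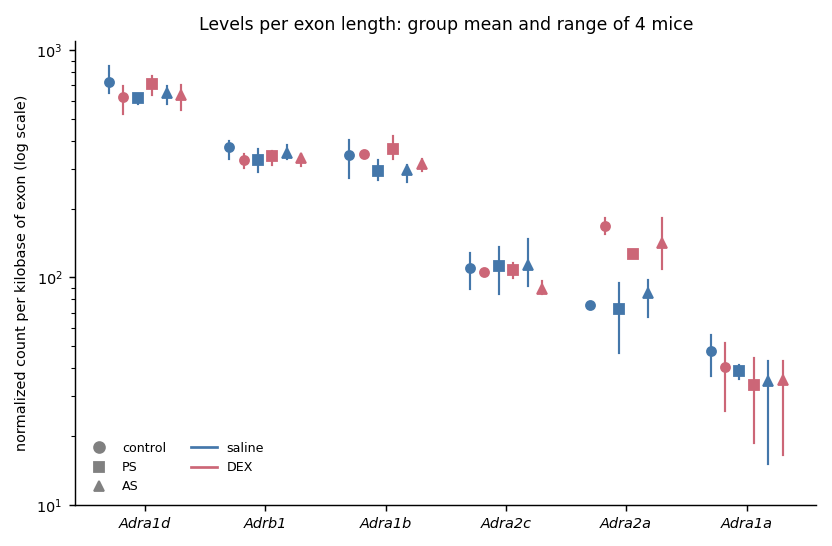
Normalized count per kilobase of annotated exon (log axis) of the 6 receptor genes in each group. Symbols are means of 4 mice and lines run from the lowest to the highest mouse. Adra1d was highest and Adra1a lowest in each group, and Adra2a lay below Adra2c by mean in the saline groups and above it in the DEX groups.

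Scaled by annotated exon length, the pair of alpha2 genes changed places with DEX. By mean level per kilobase, Adra2a stood below Adra2c in the 3 saline groups (75.4 against 110 in control, 73.0 against 113 in PS, and 85.3 against 113 in AS mice) and above it in the 3 DEX groups (168 against 106, 126 against 108, and 142 against 89.1). In the control groups the mice did not overlap in either state, whereas the ranges of both genes overlapped in PS and AS mice with saline. These are levels per annotated exon length (4832 bases for Adra2a and 3445 for Adra2c) and were not tested between genes. Before division by length, mean Adra2a with saline was below Adra2c in control (364 against 378) and PS mice (353 against 388). In AS mice with saline it was above (412 against 391), so the order there depends on the gene model.

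Adra2a (ENSMUSG00000033717.6, mm10 chr19:54044151-54048982, plus strand) encodes the alpha2A receptor, and it rose with DEX in control, PS and AS mice. In control mice the normalized counts were 358, 355, 378 and 366 with saline and 879, 795, 747 and 826 with DEX. In PS mice they were 455, 338, 393 and 225 with saline and 587, 623, 592 and 638 with DEX. In AS mice they were 472, 392, 462 and 324 with saline and 664, 679, 524 and 879 with DEX. Over all 24 mice, saline values ran from 225 to 472 and DEX values from 524 to 879, without overlap. Groups without overlap were found for 1 of 6 receptor genes in control, 2 in PS and 1 in AS mice, where 10.1%, 10.1% and 9.02% of all genes did not overlap. The 4 control mice with saline were close together (SD 10.2 around 364), while PS mice with saline ranged from 225 to 455 and AS mice with DEX from 524 to 879.

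The log2 fold change of Adra2a with DEX was 1.15 ± 0.16 (SE) in control mice, 0.83 ± 0.16 in PS mice and 0.73 ± 0.16 in AS mice, that is 2.22-, 1.78- and 1.65-fold. The limma adjusted p (Benjamini-Hochberg over all genes) was 4.4e-05, 0.0021 and 0.0061. Adra2a was the sole receptor gene called in control mice, 1 of 6 where 6.49% of all genes were called at an adjusted p under 0.1. It was 1 of 2 called of 6 in PS mice (5.36% of all genes) and the sole one of 6 in AS mice (8.77%). Ranked by log2 fold change among the genes called higher with DEX, it was number 47 of 567 in control, 62 of 386 in PS and 84 of 537 in AS mice.

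The responses of Adra2a became smaller in the order control, PS, AS, but the differences between them did not pass the test. The log2 response was lower than in control mice by an estimated -0.32 in PS (95% interval -0.78 to 0.15, limma adjusted p 0.68) and -0.43 in AS mice (-0.89 to 0.04, adjusted p 0.41), and AS minus PS was -0.11 (-0.57 to 0.35, adjusted p 1). These 3 differences share groups and are not independent. Without PS saline mice 2 and 62, which had the highest share of ribosomal bases in the study's quality table, the PS minus control difference was -0.01.

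In the comparison of stressed with control mice, Adra2a was not called. With saline, the log2 difference from control was -0.09 in PS (95% interval -0.42 to 0.23, limma adjusted p 0.85) and 0.16 in AS mice (-0.17 to 0.49, adjusted p 0.71). Without PS saline mice 2 and 62 the PS difference was -0.40 (adjusted p 0.67). With DEX, all 4 PS mice (587 to 638) lay below all 4 control mice (747 to 879), a log2 difference of -0.41 ± 0.16 (SE) with a limma adjusted p of 0.27. AS mice with DEX overlapped the control mice (log2 difference -0.26, adjusted p 0.47). Groups that did not overlap were 1 of 6 receptor genes in PS against control with DEX, where 7.26% of all genes did not overlap.

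**Figure D2:**
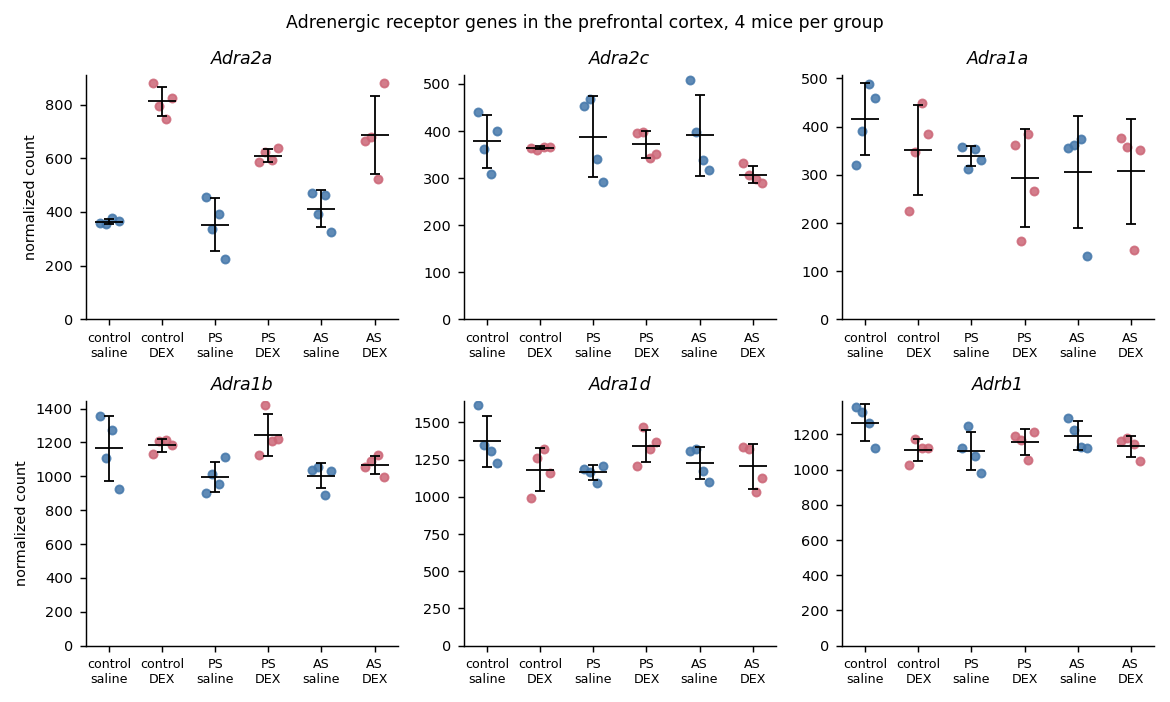
Normalized count of each receptor gene (linear axis from 0) in the 6 groups. Points are the 4 mice of a group, blue for saline and red for DEX, with the group mean and SD in black. Adra2a shows DEX mice above saline mice in each phenotype, and for Adra1a 1 AS saline mouse (132) and 1 AS DEX mouse (144) lie far below the others of their group.

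The other alpha2 gene, Adra2c (ENSMUSG00000045318.6, chr5:35278319-35281763, plus strand), encodes the alpha2C receptor and was not called in any comparison. Its normalized counts in AS mice were 509, 398, 339 and 317 with saline and 332, 307, 299 and 290 with DEX. The lowest AS saline mouse lay below the highest AS DEX mouse, so the groups overlapped narrowly, and the log2 fold change was -0.32 ± 0.14 (SE, limma adjusted p 0.21). Without AS saline mouse 44, 1 of the 4 libraries with the lowest signal in long genes, it was -0.42 and called (adjusted p 0.076). Adra2c in AS mice was called in only that 1 of 24 fits without 1 library and in 0 of 12 alternatives. Over those 24 fits the log2 fold change ran from -0.42 to -0.19, with a limma adjusted p of up to 0.63. In control mice the log2 change with DEX was -0.04 (95% interval -0.33 to 0.25) and in PS mice -0.04 (-0.33 to 0.25), intervals that leave room for changes of either sign. The 4 control mice with DEX lay between 360 and 367, and all 4 AS mice with DEX (290 to 332) were below them and below the PS mice with DEX (344 to 398). Those log2 differences were -0.25 (adjusted p 0.45) and -0.27 (adjusted p 1), neither called.

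Adra1b (ENSMUSG00000050541.14, chr11:43774606-43901210, minus strand), the alpha1B receptor gene, rose with DEX in PS mice. Its normalized counts in PS mice were 903, 1015, 954 and 1114 with saline and 1126, 1419, 1208 and 1218 with DEX. The groups were separated by a narrow gap, between 1114 and 1126, and mouse 34 was the highest DEX mouse. The log2 fold change was 0.32 ± 0.10 (SE), or 1.25-fold, with a limma adjusted p of 0.065, number 280 of the 386 genes called higher. This call was lost without PS saline mice 2 and 62 (log2 fold change 0.22, adjusted p 0.67), without the 4 libraries lowest in long genes (0.25, adjusted p 0.18), and when any 1 of 6 of the 8 PS mice was left out, with an adjusted p of up to 0.23.

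In control mice, Adra1b had normalized counts of 1357, 1108, 1273 and 923 with saline and 1131, 1210, 1215 and 1183 with DEX, a log2 difference of 0.04 (95% interval -0.16 to 0.24). In AS mice the log2 difference was 0.09 (-0.11 to 0.28). The DEX mice lay inside the range of the saline mice in control animals, and the AS groups overlapped. Averaged over the 3 phenotypes, the log2 change was 0.15 ± 0.05 (SE, limma adjusted p 0.087), called along with Adra2a (0.90 ± 0.09, adjusted p 1.2e-07), 2 of 6 receptor genes where 15.5% of all genes were called. The Adra1b call on average was lost in 15 of 24 fits without 1 library and in 4 of 12 alternatives. The PS response exceeded the control response by 0.28 (95% interval 0.00 to 0.56, adjusted p 0.50).

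With saline, Adra1b was lower by mean in both stressed phenotypes, at 997 ± 90.7 (SD, n = 4) in PS and 1004 ± 75.6 in AS mice against 1165 ± 192 in control mice. The groups overlapped, since control mouse 117 (923) was below 3 of the 4 PS mice and 3 of the 4 AS mice. The log2 differences were -0.21 and -0.20, with limma adjusted p of 0.33 and 0.45. With DEX, all 4 AS mice (995 to 1124) were just below all 4 PS mice (1126 to 1419), a log2 difference of -0.22 (adjusted p 1), and also below the control mice (1131 to 1215).

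Adra1d (ENSMUSG00000027335.9, chr2:131545850-131562283, minus strand), the alpha1D receptor gene and the one with the highest level per kilobase, moved in opposite directions by mean in control and PS mice. Its normalized counts in control mice were 1614, 1346, 1306 and 1224 with saline and 991, 1259, 1319 and 1161 with DEX. In PS mice they were 1186, 1165, 1096 and 1208 with saline and 1207, 1468, 1325 and 1371 with DEX. The saline and DEX mice overlapped in both phenotypes, in PS mice by 1 pair of nearly equal values. The log2 changes were -0.22 ± 0.10 (SE) in control and 0.20 ± 0.10 in PS mice, with limma adjusted p of 0.28 and 0.37, and -0.03 in AS mice.

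The difference between those responses of Adra1d, PS minus control, was 0.42 ± 0.14 (SE) on the log2 scale with an unadjusted p of 0.0061 and a limma adjusted p of 0.37. It was 1 of 3 receptor genes with an unadjusted p under 0.05 in that comparison, beside Adrb1 and Adra1b. Over all 14074 genes limma and edgeR called 0 in it and DESeq2 23, and 1404 had an unadjusted p under 0.05 with limma. With saline, all 4 PS mice (1096 to 1208) lay below all 4 control mice (1224 to 1614) for Adra1d, the sole 1 of 6 receptor genes without overlap there, where 11.3% of all genes did not overlap. That log2 difference was -0.23 ± 0.10 (SE, adjusted p 0.31). Without the 4 libraries lowest in long genes, none of which is in those 2 groups, the estimate stayed at -0.23 and was called (adjusted p 0.091). In AS mice with saline the difference from control was -0.16 (adjusted p 0.55).

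Adrb1 (ENSMUSG00000035283.5, chr19:56722199-56733113, plus strand), which encodes the beta1 receptor, kept a coefficient of variation of 5.26% to 9.87% within each group. Its normalized counts in control mice were 1354, 1329, 1264 and 1121 with saline and 1026, 1177, 1123 and 1125 with DEX. All DEX mice were below 3 of the saline mice, and saline mouse 117 lay among the DEX mice. The log2 change was -0.19 ± 0.08 (SE, limma adjusted p 0.21). Without control saline mouse 117, which had the highest olfactory bulb markers of all libraries, it was -0.24 and called (adjusted p 0.089). Adrb1 in control mice was called in only that 1 of 24 fits without 1 library and in 0 of 12 alternatives. Over those 24 fits the log2 change ran from -0.24 to -0.15, with a limma adjusted p of up to 0.46. The part of olfactory bulb tissue in the Adrb1 values was not tested.

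In PS and AS mice the log2 change of Adrb1 with DEX was 0.07 (95% interval -0.09 to 0.22) and -0.07 (-0.23 to 0.08). The PS response minus the control response was 0.25 ± 0.11 (SE, limma adjusted p 0.43). With saline, Adrb1 was 1267 ± 104 (SD, n = 4) in control, 1106 ± 109 in PS and 1193 ± 80.4 in AS mice, log2 differences from control of -0.20 (adjusted p 0.25) and -0.09 (adjusted p 0.68). The groups overlapped in both.

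**Figure D3:**
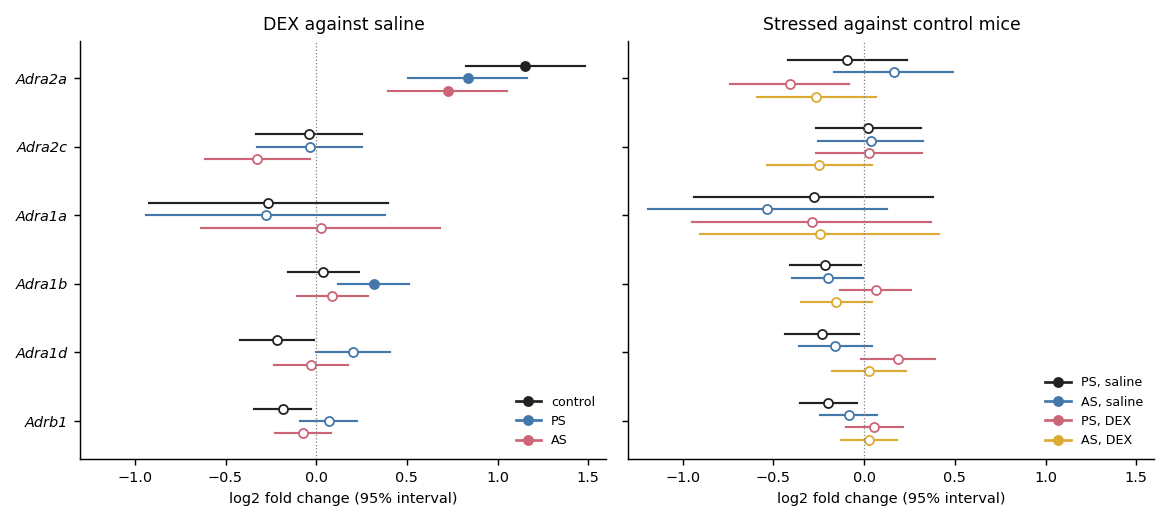
Log2 fold changes of the 6 receptor genes, for DEX against saline within each phenotype (left) and for stressed against control mice within each injection (right). Points are limma estimates with 95% intervals, filled where the adjusted p was under 0.1. The 4 filled points are Adra2a in the 3 phenotypes and Adra1b in PS mice, and the intervals of Adra1a are the widest.

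Adra1a (ENSMUSG00000045875.13, chr14:66635251-66771168, plus strand), the alpha1A receptor gene, had the lowest mean level per kilobase and the widest intervals of its fold changes among the 6 receptor genes. With saline, its normalized counts were 321, 391, 489 and 460 in control, 358, 313, 353 and 331 in PS, and 357, 362, 374 and 132 in AS mice. With DEX they were 225, 348, 448 and 386 in control, 361, 163, 385 and 267 in PS, and 376, 359, 144 and 351 in AS mice. The groups overlapped throughout, and 4 mice stood low: AS saline mouse 44 (132), AS DEX mouse 60 (144), PS DEX mouse 34 (163) and control DEX mouse 101 (225). The log2 change with DEX was -0.27 in control, -0.28 in PS and 0.02 in AS mice, and the 95% interval in AS mice ran from -0.63 to 0.68. Without mouse 101 the control value was -0.065, and without mouse 34 the PS value was -0.020. Against control with saline it was -0.28 in PS and -0.53 in AS mice, with limma adjusted p of 0.75 and 0.54. The AS value was -0.17 without mouse 44, and with the long-gene index described next as a covariate the PS value was -0.091 and the AS value -0.14.

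The 4 mice low in Adra1a were the 4 libraries lowest in an index of long genes. The index is the median log2 deviation, from the mean of all libraries, of 2337 genes with at least 8000 exon bases minus that of 1323 genes with at most 2000. It was -0.39 in AS saline mouse 44, -0.47 in AS DEX mouse 60, -0.36 in PS DEX mouse 34 and -0.14 in control DEX mouse 101, and from -0.07 to 0.24 in the other 20 libraries. For Adra2a, mice 44 and 60 were the lowest of their groups (324 and 524), mouse 34 lay inside the range of its group (623) and mouse 101 was the highest of its group (879). The part of long genes in the Adra1a values was not tested.

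**Figure D4:**
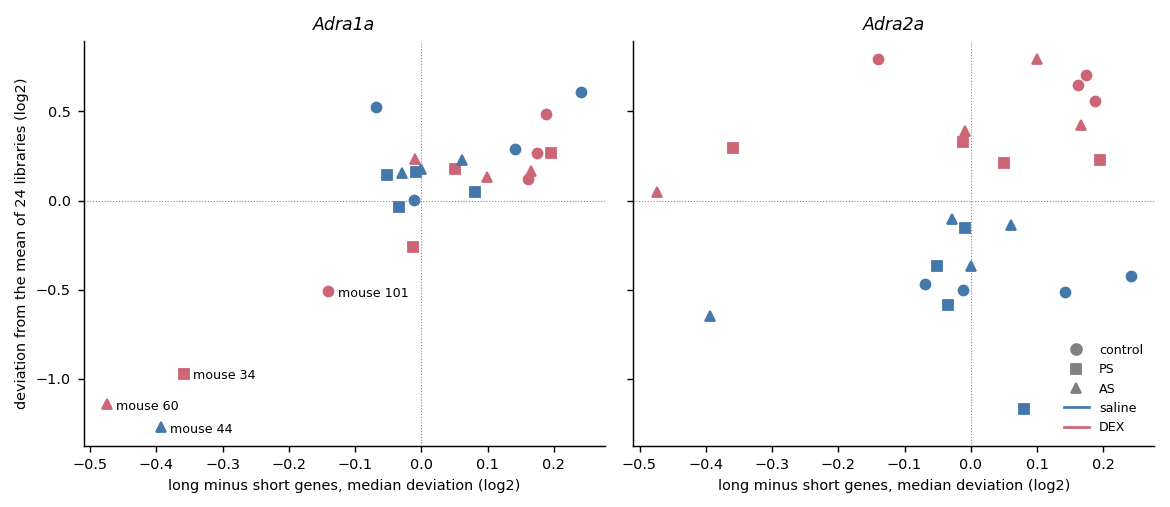
Deviation of Adra1a (left) and Adra2a (right) from their mean over 24 libraries, against the index of long minus short genes, both in log2 units. Each point is 1 library, with the symbol for phenotype and the colour for injection. The 4 named mice are the lowest in the index and in Adra1a, whereas in Adra2a all DEX mice lie above all saline mice over the whole range of the index.

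In the comparisons between phenotypes within an injection and in those between DEX responses, limma called 0 of 6 receptor genes, and edgeR and DESeq2 called 0 as well. The background of genes called by limma was 1.51% for PS and 0.156% for AS against control with saline, 0.199% and 0.867% for the same with DEX, 0.348% for the difference in response between AS and control, and 0.0% in the other 4. In those 4, DESeq2 called 11 genes for AS against PS with saline, 4 for the same with DEX, 23 for the PS minus control response and 0 for the AS minus PS response, edgeR called 0 in each, and limma gave an unadjusted p under 0.05 to 671, 580, 1404 and 344 genes. Unadjusted p under 0.05 were found for 3 receptor genes in PS against control with saline (Adra1b, Adra1d, Adrb1; 13.1% of all genes), 1 in AS against control with saline (Adra1b; 11.0%), 1 in PS against control with DEX (Adra2a; 14.0%), 1 in AS against PS with DEX (Adra1b; 4.12%), 3 in the PS minus control response (9.98%) and 0 in the other 4. Groups that did not overlap were found for 2 of 6 receptor genes in AS against control with DEX (Adra1b and Adra2c; 7.09% of all genes) and for 2 in AS against PS with DEX (the same 2; 1.71%). There were 0 of 6 in AS against control with saline (6.51%) and in AS against PS with saline (5.22%). The median log2 difference over the 6 genes was -0.21 in PS and -0.12 in AS mice against control with saline, beside 0.00 over all genes.

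The genes whose pattern over the 24 libraries was most like that of a receptor gene, by Pearson correlation of log2 values among 12012 genes, are given as a description, since libraries of a group share their treatment. For Adra2a they were Fzd2, a Wnt receptor (r = 0.952), Mro (0.935) and Ucp2, a mitochondrial uncoupling protein (0.931). These 3 were called higher with DEX by limma in each phenotype, beside 6.49%, 5.36% and 8.77% of all genes called in control, PS and AS mice. They were chosen for likeness to Adra2a over the same libraries, so their calls are no separate result. The log2 changes in control, PS and AS mice were 1.10, 0.93 and 0.80 for Fzd2, 0.70, 0.66 and 0.64 for Mro, and 1.16, 0.76 and 0.62 for Ucp2. For Adra1a they were Kmt2c (0.957), Lcor (0.956) and Slc9a7 (0.945), with 20291, 7913 and 3820 exon bases. For the others the likeness was lower: Tecpr1 (0.798), Vgf (0.732) and Myrip (0.700) for Adra1b, Ywhag (0.890), Spock2 (0.841) and Ube2o (0.834) for Adra1d, Trim8 (0.836), Nr2f6 (0.794) and Hdac5 (0.781) for Adra2c, and Gnaz (0.781), Lrrtm1 (0.771) and Mfsd12 (0.716) for Adrb1.

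Of the genes that supply and clear noradrenaline, 6 of 10 were in the table, and Ddc, the aromatic amino acid decarboxylase that makes dopamine, rose with DEX in each phenotype. Its normalized count (mean ± SD, n = 4) was 80.6 ± 17.1 with saline and 161 ± 13.2 with DEX in control mice. PS mice had 80.5 ± 6.61 and 152 ± 23.5, and AS mice 78.5 ± 20.1 and 136 ± 21.0. Saline and DEX mice did not overlap in any phenotype. The same held for 10.1% of all genes in control, 10.1% in PS and 9.02% in AS mice. The log2 changes of Ddc were 1.01, 0.90 and 0.81 (limma adjusted p 0.00037, 0.0014 and 0.0034). Maoa, a monoamine oxidase that degrades noradrenaline, fell in PS mice (log2 change -0.22, adjusted p 0.059). The other 4 were not called with DEX. Over all genes, 6.49% were called in control, 5.36% in PS and 8.77% in AS mice. The median change of the list was 0.26 in control, 0.02 in PS and -0.04 in AS mice, beside -0.01, 0.00 and 0.00 over all genes. Th, the enzyme that makes L-DOPA, ranged from 6.75 to 852, and its 4 highest libraries were the 4 highest in olfactory bulb markers.

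Of the G protein subunits, 9 of 10 were in the table. With DEX, limma called none of the 9 in control mice (1 had an unadjusted p under 0.05, edgeR called 0 and DESeq2 1) and none in PS mice (0 unadjusted, 0 by edgeR and by DESeq2). In AS mice Gnai2, a Gi subunit to which alpha2 receptors couple, fell from 5069 ± 297 to 4094 ± 324 (SD, n = 4), a log2 change of -0.31 (limma adjusted p 0.027). Gnai2 was 1 of 9 genes called there, beside 8.77% of all genes. The medians of the list were -0.02, -0.03 and 0.03 in control, PS and AS mice.

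Of the receptor kinases, arrestins and RGS proteins, which end or shorten receptor signalling, 17 of 18 were in the table. Grk3, a kinase that desensitises receptors, rose with DEX in control mice (log2 change 0.26, limma adjusted p 0.077) as 1 of 17 genes called, beside 6.49% of all genes. Grk5, another such kinase, fell in PS mice from 740 ± 33.1 to 530 ± 19.1 (SD, n = 4, log2 change -0.48, adjusted p 0.0018) and in AS mice from 776 ± 58.5 to 539 ± 64.7 (-0.53, adjusted p 0.00059). Rgs20, which speeds the shut-off of Gi proteins, also fell in PS mice (-0.28, adjusted p 0.066). Rgs5 fell in AS mice (-0.72, adjusted p 0.081), and it also marks pericytes and stands in the mural cell list below. In PS and in AS mice 2 of the 17 genes were called, beside 5.36% and 8.77% of all genes. The median of the list was -0.07, -0.11 and -0.12.

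Of the effectors (phospholipases C beta, adenylyl cyclases, GIRK and HCN channels), 18 of 19 were in the table, and none rose with DEX in control or PS mice. Of the 18, 2 fell in control and 1 in PS mice, and 2 rose and 2 fell in AS mice. The shares of all genes called were 6.49%, 5.36% and 8.77%. Adcy8, a calcium-stimulated adenylyl cyclase, fell in control mice from 621 ± 169 to 346 ± 59.0 (SD, n = 4, log2 change -0.82, limma adjusted p 0.0020). Kcnj9, a GIRK channel subunit opened by Gi-coupled receptors, was the other of 2 genes that fell in control mice and the 1 that fell in PS mice (-0.30 and -0.22, adjusted p 0.012 and 0.078). In AS mice Plcb4, a phospholipase C, rose from 1970 ± 48.1 to 2626 ± 251 (SD, n = 4, log2 change 0.41, adjusted p 0.0028), and Plcb3, another, and Hcn3, a channel subunit, fell (-0.38 and -0.34, adjusted p 0.035 and 0.096). The median of the list was -0.08, -0.01 and -0.03. Kcnj9 and Hcn3 were outside the 4 largest changes per list and were named after their values were seen.

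With saline, limma called none of the 50 genes of these 4 lists in PS or in AS mice against control. Unadjusted p under 0.05 were found for 3 of them in PS (Maob, Plcb4, Hcn2; 13.1% of all genes) and 8 in AS mice (Maob, Gnaz, Rgs2 and 5 effectors; 11.0% of all genes), edgeR called 0, and DESeq2 called 0 in PS and 1, an effector, in AS mice. With DEX, limma called 1 of the 50 in AS against control (Rgs5, lower), beside 0.867% of all genes, and 0 in PS. There edgeR called 1 and DESeq2 3 in AS. For the AS minus control response limma called 1 (Plcb4, higher), beside 0.348% of all genes, edgeR 1 and DESeq2 2. For the PS minus control response all 3 called 0.

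Markers of several cell types moved with DEX beside these genes. For comparison, limma called 6.49% of all genes with DEX in control, 5.36% in PS and 8.77% in AS mice. Of 8 astrocyte markers, Gjb6 rose in each phenotype (log2 change 0.90 in control, 0.55 in PS and 0.49 in AS mice) and Aldh1l1 in control and PS mice (0.30 and 0.34), while Aqp4 fell in PS and AS mice (-0.53 and -0.49) and Gfap in AS mice (-0.56). Their summed normalized count was 108688 to 131844 with saline and 121665 to 144820 with DEX in control, 117334 to 136243 and 106025 to 125065 in PS, and 115638 to 142505 and 109676 to 143434 in AS mice, so the sums overlapped in each phenotype. Of 6 microglia markers, 2 fell in control and 3 in PS and AS mice, and the sums overlapped in control mice only (6155 to 7243 with saline, 5730 to 7544 with DEX). In PS mice they were 6801 to 7327 and 5673 to 6126, and in AS mice 6981 to 7907 and 5461 to 6378.

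Markers of vessels were called lower mainly in AS mice. Of 6 endothelial markers, 0 were called in control, 1 fell in PS and 4 fell in AS mice. The shares of all genes called were 6.49%, 5.36% and 8.77%. In PS mice edgeR called 0 of the 6. The endothelial sums in PS mice were 4304 to 6223 with saline and 2601 to 6065 with DEX. In AS mice they were 4175 to 6805 and 2905 to 4336, so they overlapped in both. Of 7 mural markers, 0 were called in control and PS and 4 fell in AS mice, Rgs5 among them. The mural sums with saline and DEX were 4814 to 6369 and 3208 to 6458 in PS mice. In AS mice they were 4563 to 8278 and 3465 to 4550. For AS minus PS responses limma, edgeR and DESeq2 called 0 of these markers (0 of 6 and 1 of 7 had an unadjusted p under 0.05). For AS minus control responses limma called 0, with an unadjusted p under 0.05 for all of them, edgeR called 0 endothelial and 2 mural markers, and DESeq2 2 and 4. The part of these cell types in the receptor values was not tested, and in bulk tissue fewer cells of a type and less RNA per cell cannot be told apart.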

How the data were processed

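RNA was measured in 24 PFC libraries (strand-specific, poly(A)-selected), 1 per mouse, in 6 groups of 4 taken from the sample labels. The tissue block held secondary motor, cingulate, orbital, prelimbic and infralimbic cortex. The authors trimmed reads with fastp 0.20.1, aligned them to mm10 with HISAT2 2.2.1 and used featureCounts (Subread 2.0) with GENCODE vM22. The deposited signal is, per gene, the count over a size factor from DESeq2 1.36.0, so alignment, counting and scaling are part of every value. The authors' tables of comparisons (fold changes and p-values) were not used, except for gene coordinates.

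In each library 100% of the values were whole multiples of 1 read within 0.01 read. The recovered reads gave the depth and the count models. Depth sets the counting error, which is smaller in deeper libraries.

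limma 3.58.1 (R 4.3.3, eBayes with a trend) was fitted to log2(normalized count + 1) of all 14074 genes in all 24 libraries, with 1 mean per group and no filter. Genes were called at a Benjamini-Hochberg adjusted p under 0.1. Fold changes and 95% intervals are on that scale (23.52 degrees of freedom), and the pseudocount of 1 slightly understates the changes of low genes. The 13 comparisons were the 6 between phenotypes within an injection, DEX against saline in each phenotype and on average, and 3 differences between responses. The script was tested on simulated data. Alternatives were a pseudocount of 8, filters at a mean of 100 or at 10 reads per library, quantile normalization, only the groups compared, a library size covariate, edgeR 4.0.16 quasi-likelihood, DESeq2 1.42.0, edgeR on thinned reads, and leaving out libraries.

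The receptor genes, the 4 pathway lists (noradrenaline supply and clearance, G proteins, kinases with arrestins and RGS proteins, effectors) and the marker lists were chosen with earlier results of these data known. Named beside the receptors were Fkbp5, the 3 genes most correlated with each receptor (mean of at least 100), and up to 4 called genes per pathway list with the largest changes. Exon lengths came from GENCODE vM21, which has the same build and gave a length for 14061 genes. Some genes of the lists are counted but not reported by name here.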

Additional observations from a re-analysis of the deposited data

Results flagged for a closer look

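Of 36 groups of 4 libraries examined (6 receptor genes in 6 groups), 2 had a library far from the other 3, judged by the gap to the nearest library as a share of the range of the group (Dixon's criterion at the 95% level). Chance flags about 1 in 20 such groups. Adra1a had a normalized count of 132.1 in AS saline mouse 44, where the other 3 lay between 357 and 374 (gap 0.927 of the range). It had 144.5 in AS DEX mouse 60, where the other 3 lay between 351 and 376 (0.894). Both mice were also the lowest in the index of long genes.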

How the results depend on the processing

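Adra2a was called with DEX under 12 of 12 alternatives and in 24 of 24 fits without 1 library, in control (log2 fold change 1.11 to 1.19), PS (0.63 to 1.14) and AS mice (0.60 to 0.85). The count of receptor genes called moved as follows, and apart from smaller groups the cause was not tested. PS against control with saline went from 0 to 1 without the 4 libraries lowest in long genes, an alternative chosen after seeing the data, as was the index as a covariate. DEX in PS mice went from 2 to 1, and on average over phenotypes from 2 to 1, without PS saline mice 2 and 62 and without those 4 libraries. The average also went to 1 with quantile normalization and with edgeR on thinned reads. Leaving out 1 library gave 1 to 2 in control, PS and AS mice and on average, where Adra1b was lost in 15 of 24 fits.

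Among the values printed above, signs reversed for these, none of which was called. Adra1a with DEX in AS mice was -0.021 with edgeR on thinned reads, -0.010 without the 4 libraries and -0.060 with the covariate, and -0.34 to 0.35 over fits without 1 library. Adra2c in PS mice was 0.0084 without mice 2 and 62, and -0.16 to 0.063 without 1 library. Without 1 library, other ranges that crossed 0 among them were -0.068 to 0.12 for Adra1b and -0.13 to 0.039 for Adra2c in control, -0.082 to 0.041 for Adra1d in AS mice, and for Adra2a -0.23 to 0.11 in PS against control with saline and -0.25 to 0.091 for AS minus PS responses. Over all genes, among comparisons in which limma called any, DESeq2 called more than 1.5 times as many in 5. Against control with saline these were 431 against 213 for PS and 99 against 22 for AS. With DEX they were 225 against 28 and 417 against 122. The last was 439 against 49 for AS minus control responses, where edgeR called 77. Where limma called 0, DESeq2 called 11 for AS against PS with saline and 4 with DEX. It called 23 for PS minus control responses and 0 for AS minus PS responses. No paired analysis was possible because mouse numbers do not recur between groups.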
